A study of Mus musculus with 6 samples.

Results

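The insulin-like growth factor (IGF) system of the retina is described here through 10 genes: the binding protein genes Igfbp2, Igfbp3, Igfbp4, Igfbp5, Igfbp6 and Igfbp7, the ligand genes Igf1 and Igf2, and the receptor genes Igf1r and Igf2r. They were found by gene symbol among the 25124 gene models of the count table, and the 10 genes all passed the filter on low counts that left 14685 genes to test. Igfbp3 was chosen by its rise in CPM in the mutant libraries, so its genotype difference is given as a description with no test, and the counts of genes past a threshold concern the other 9. The mutant libraries FS3A, FS3B and FS5A came from retinas of mice with the genotype Elovl2(C234W), a substitution in an elongase of long-chain polyunsaturated fatty acids, and the libraries WT1A, WT2A and WT2B came from wild-type (WT) retinas. The prefix FS was read as the mutant by elimination, since the labels do not spell it out, and each direction below rests on that. Both groups were C57BL/6J mice aged 4 months, with 3 libraries of polyadenylated RNA each. The labels give neither the number of mutant copies nor the animal behind each library. The names of WT2A and WT2B have the same number, as do those of FS3A and FS3B. The spread behind the p-values is that among these libraries and may be technical.

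IGF1 and IGF2 are secreted hormones of the insulin family that act through the tyrosine kinase receptor IGF1R and, inside the cell, through PI3K, AKT and the RAS and MAPK cascade. IGF2R, the cation-independent mannose 6-phosphate receptor, takes up IGF2 for breakdown in lysosomes and sorts lysosomal enzymes. The IGF binding proteins hold the ligands in extracellular fluid, and proteases that cut them set the ligands free. In the retina the system is best known for its part in vessel growth.

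Libraries held between 15804645.5 and 19298613 counts in genes in C234W and between 14184093 and 18710329 in WT. Elovl2 itself was measured at 96.1 ± 17.9 CPM in C234W and 138.7 ± 3.01 CPM in WT (SD, n = 3 each; CPM is the count scaled to library size by TMM), a level that need not change with a substitution. The tissue label was checked by markers. The summed level of 6 rod markers ran from 59630 to 78600 CPM in C234W and from 88730 to 138300 CPM in WT. The library WT1A stood apart: its 6 pigment epithelium markers summed to 758 CPM, against 111 to 159 CPM in C234W and 77.4 and 183 CPM in WT2B and WT2A, so values without it are given for each of the 10 genes. The 6 amacrine cell markers summed to 663 CPM in WT1A, against 1513 and 1476 CPM in WT2A and WT2B and 852 to 1252 CPM in C234W. None of the 6 pigment epithelium markers was at 0 in any library. Transcript length moved with genotype over all genes: the median log2 fold change (C234W over WT) was -0.34 among the 2937 genes with transcripts of at most 1671 bases and 0.28 among the 2936 with at least 4985 bases, which bears on genes as unequal in length as Igfbp7 (1205 bases) and Igf1r (11955 bases). Values of the 10 genes with each library's length trend removed are therefore given beside the main ones.

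The 4 promoters below belong to Igfbp3, whose rise chose it, Igfbp5 and Igf2, whose groups did not overlap in CPM, and Igfbp7. The groups of Igfbp7 overlapped in CPM. Among binding proteins not chosen for their change, its mean share of the family differed most (26.02% in C234W, 15.78% in WT). Igfbp4 was close behind (28.42% in C234W, 38.55% in WT). Each promoter is the RefSeq sequence on GRCm38.p6, the assembly also called mm10. It runs from 250 bases before to 50 bases after the start of the isoform that was counted, read along the gene. Capitals mark 3 spellings of a TATA box, namely TATAAA as the plain form with TATATA and then TATTTAA as variants, and the GC box GGGCGG, the letters bound by the factor SP1, on either strand. No marked words overlap in these 4 windows. These letters were chosen after the sequences had been read. The Igfbp3 window lies at chr11:7213874-7214173 (minus strand), the Igfbp5 window at chr1:72874816-72875115 (minus strand), the Igfbp7 window at chr5:77407996-77408295 (minus strand) and the Igf2 window at chr7:142658755-142659054 (minus strand).
Igfbp3: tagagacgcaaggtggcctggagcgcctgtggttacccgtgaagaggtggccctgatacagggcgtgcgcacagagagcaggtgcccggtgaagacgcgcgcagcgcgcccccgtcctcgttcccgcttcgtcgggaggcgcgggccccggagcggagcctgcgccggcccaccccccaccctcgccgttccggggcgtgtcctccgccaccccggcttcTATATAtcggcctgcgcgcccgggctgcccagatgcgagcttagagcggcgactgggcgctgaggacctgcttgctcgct
Igfbp5: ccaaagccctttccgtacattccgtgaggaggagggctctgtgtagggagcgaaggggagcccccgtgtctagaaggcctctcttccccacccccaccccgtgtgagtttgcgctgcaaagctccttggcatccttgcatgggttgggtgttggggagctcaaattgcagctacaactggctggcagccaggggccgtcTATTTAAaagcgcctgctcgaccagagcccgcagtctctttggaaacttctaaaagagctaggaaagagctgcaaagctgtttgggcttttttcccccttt
Igfbp7: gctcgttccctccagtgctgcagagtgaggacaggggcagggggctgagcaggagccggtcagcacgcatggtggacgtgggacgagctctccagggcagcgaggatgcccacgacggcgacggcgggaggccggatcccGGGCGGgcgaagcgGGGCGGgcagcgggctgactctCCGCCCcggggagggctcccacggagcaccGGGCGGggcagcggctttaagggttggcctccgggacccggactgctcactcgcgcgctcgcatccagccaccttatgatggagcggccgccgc
Igf2: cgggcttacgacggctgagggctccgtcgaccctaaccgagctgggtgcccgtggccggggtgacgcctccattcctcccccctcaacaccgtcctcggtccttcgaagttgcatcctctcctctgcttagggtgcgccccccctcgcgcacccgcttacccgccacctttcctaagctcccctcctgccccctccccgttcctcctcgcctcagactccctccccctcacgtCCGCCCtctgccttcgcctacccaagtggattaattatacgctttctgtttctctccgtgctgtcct
The variant TATATA begins 30 bases before the start of Igfbp3, and TATTTAA begins 51 bases before the counted start of Igfbp5. Igfbp4 has TATAAA, which begins 28 bases before its start. The windows of Igfbp7 and Igf2 hold none of the 3 spellings, and have 4 and 1 GC boxes. Over all 32851 promoter windows of the same length in the table, TATAAA occurs in 13.6%, TATATA in 5.67%, TATTTAA in 4.51% and GGGCGG in 35.7%. A match describes the letters and does not show that a factor binds there.

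Igfbp3 encodes the main carrier of IGFs in blood, which is also made locally in many tissues. Its gene (NM_008343) lies on chromosome 11 from 7206091 to 7213923. It had 212.5, 133 and 80 counts in FS3A, FS3B and FS5A, against 28, 43 and 15 counts in WT1A, WT2A and WT2B. In TMM-scaled CPM these are 11.6, 6.31 and 4.88 in C234W and 1.86, 2.31 and 1.10 in WT. All 3 mutant libraries lay above all 3 WT libraries, and FS3A was the highest by a wide margin. On the log2 scale C234W exceeded WT by 2.09 (SE 0.423), a 4.27-fold difference, and 2.07 with the length trend removed. With 1 library left out it ran between 1.66 without FS3A and 2.35 without WT2A, and it was 2.13 without WT1A.

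Igfbp3 has a close neighbour. Igfbp1, which encodes the binding protein known from liver that responds to fasting, lies 3544 bases away on chromosome 11 on the opposite strand, and the genes face each other end to end. Igfbp1 had 20, 20 and 13 counts in FS3A, FS3B and FS5A, against 19.5, 41.5 and 10.5 counts in WT1A, WT2A and WT2B. The groups overlapped, with WT2A the highest library, and Igfbp1 did not pass the test (log2 fold change -0.62, SE 0.474, edgeR quasi-likelihood test, adjusted p = 0.433). Within a library, the ratio of Igfbp3 to Igfbp1 transcripts per length was 6.61, 4.14 and 3.83 in C234W, against 0.893, 0.644 and 0.888 in WT. Per length, Igfbp3 thus exceeded Igfbp1 in each mutant library and was below it in each WT library. Before division by length, Igfbp3 was above Igfbp1 in WT as well. Igfbp3 had 1.86, 2.31 and 1.10 CPM in WT1A, WT2A and WT2B, against 1.295, 2.23 and 0.773 CPM for Igfbp1. Igfbp3 was chosen by its rise, so the split of this ratio by genotype is a description only.

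**Figure D1:**
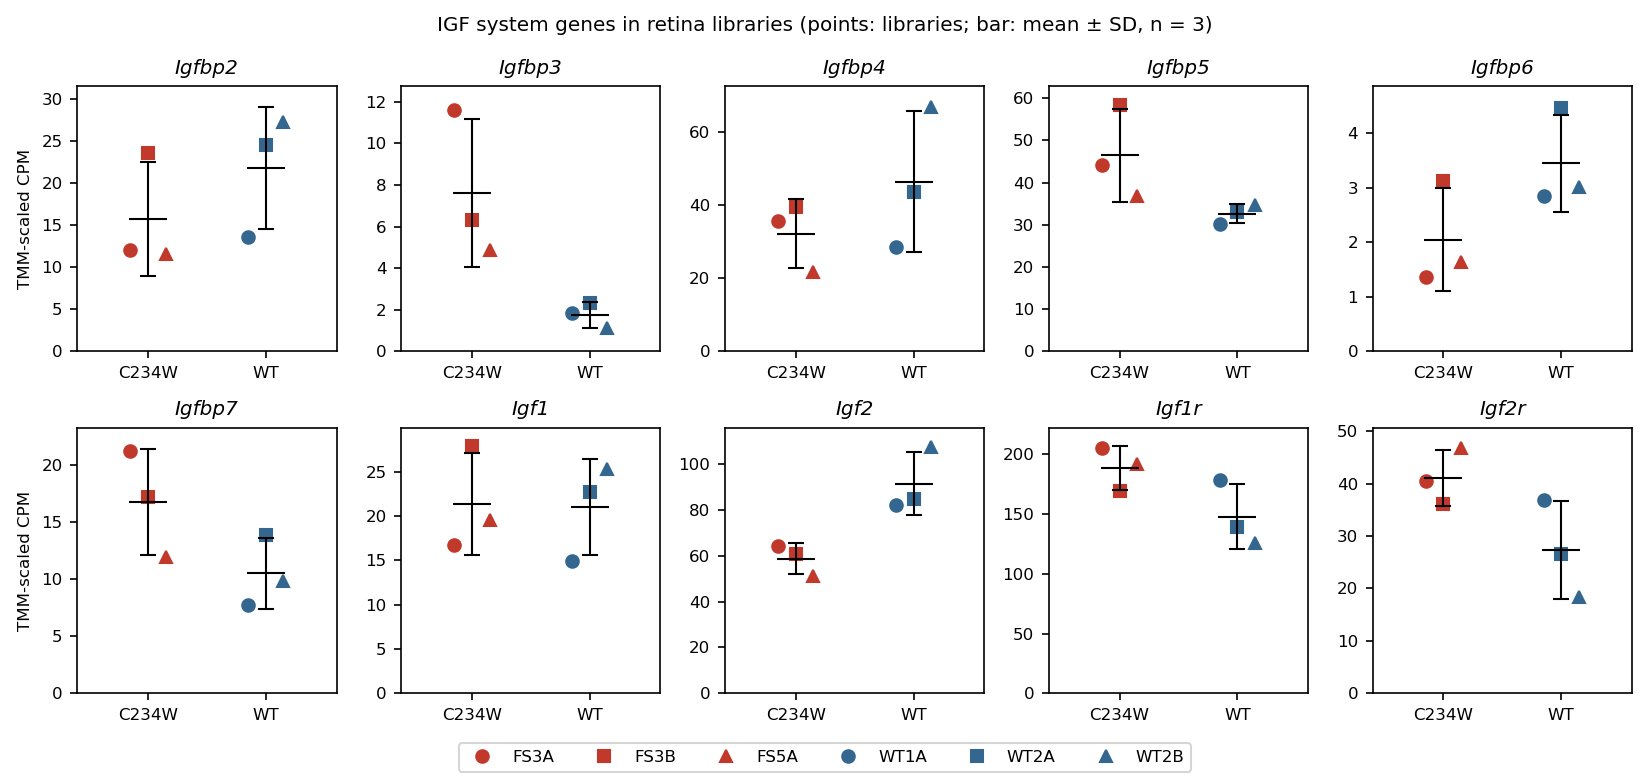
TMM-scaled CPM (vertical axes, from 0, a different range for each gene) of the 10 genes in the C234W and WT libraries; symbols are single libraries and bars show the mean ± SD (n = 3). The C234W points lie above the WT points without overlap for Igfbp3 and Igfbp5 and below them for Igf2, and the groups overlap for the other genes.

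None of the other 9 genes passed over all genes tested (edgeR's quasi-likelihood test with Benjamini-Hochberg adjustment, adjusted p from 0.0731 to 0.96), where 1.46% of the 14685 genes passed. At an unadjusted p under 0.05 there were 4 of 9, with 3 higher (Igfbp5, Igfbp7 and Igf2r) and 1 lower (Igf2), against 25.4% of all genes. By DESeq2, which called 11.9% of all genes, 1 of the 9 passed, Igf2, and by limma-voom, which called 1.63%, 0 did. The groups did not overlap for 2 of the 9, Igfbp5 and Igf2, and for 29.1% of all genes, so neither count sets the 9 genes apart. Without WT1A, 3 of the 9 passed, with Igf1r and Igf2r higher and Igf2 lower, where 18.5% of all genes passed. The WT group was then WT2A and WT2B alone, whose names share a number. In counts this pair was the closest of all, at a chi-square per degree of freedom of 9.97. WT1A stood at 65.9 from WT2B and at 74.2 from WT2A. The labels do not say whether both came from the same animal, so the spread in that fit may be technical. Once counts were added up within each name number, 0 of the 9 passed, where 0 of all 15193 genes tested passed.

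Among the binding proteins, Igfbp5 and Igfbp7 had higher means in C234W and Igfbp2, Igfbp4 and Igfbp6 lower ones. Igfbp5, a binding protein that attaches to extracellular matrix, had 44.1, 58.5 and 36.8 CPM in FS3A, FS3B and FS5A, against 30.1, 33.1 and 34.6 CPM in WT1A, WT2A and WT2B. The WT libraries lay close together and the mutant ones, though all higher, were spread, with FS3B the highest. This gave a log2 fold change of 0.51 (SE 0.196; edgeR adjusted p = 0.156). Removing the length trend brought it to 0.26 (SE 0.201; edgeR adjusted p = 0.492), leaving out FS3B to 0.31 and leaving out WT1A to 0.47.

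Igfbp7 encodes a secreted protein of vessel walls and basement membranes that binds IGFs weakly and insulin as well. It had 21.2, 17.2 and 11.9 CPM in FS3A, FS3B and FS5A, against 7.77, 13.9 and 9.86 CPM in WT1A, WT2A and WT2B. FS5A lay within the WT range, below WT2A, so the groups overlapped. Its log2 fold change was 0.67 (SE 0.29, edgeR adjusted p = 0.19). Removing the length trend raised it to 0.91 (SE 0.276, edgeR adjusted p = 0.135), and it was 0.50 without WT1A. Igfbp2 and Igfbp6, whose transcripts are about as short (1321 and 1283 bases), had lower means in C234W. The far end of the Igfbp7 locus overlaps Polr2b on the other strand, which strand-specific counting keeps apart.

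For several cell types the marker sums did not overlap between the groups. Of all single genes tested, 29.1% did not overlap, so a split alone sets no list apart. The length trend was not removed from the marker values. The 6 rod markers, whose sums are given above, were lower in C234W without overlap. Their median log2 fold change was -0.66, with a higher mean in C234W for 0 of 6. The 7 retinal ganglion cell markers overlapped, at 1345 to 1622 CPM in C234W and 1618 to 2082 CPM in WT. They had a higher mean in C234W for 0 of 7 and a median of -0.43. The 7 endothelial markers on the list, none of them at 0 in any library, summed to between 261 and 320 CPM in C234W and between 188 and 210 CPM in WT, with a higher mean in C234W for 7 of 7, a median log2 fold change of 0.57 and 0 past the threshold of edgeR. Bipolar cell markers, 6 genes, also summed higher without overlap, at 730 to 784 CPM in C234W and 459 to 570 CPM in WT, with a higher mean in C234W for 5 of 6 and a median of 0.58. The 6 Muller glia markers summed lower without overlap, at 2794 to 3359 CPM in C234W and 3495 to 4769 CPM in WT, with a higher mean in C234W for 2 of 6 and a median of -0.27. None of the genes of either list passed in edgeR. The 4 astrocyte markers were split, with a higher mean in C234W for 2 of 4 and a median of -0.05. The glial filament gene Gfap had 248 CPM in FS3A, 99.4 CPM in FS3B and 26.5 CPM in FS5A, against 46.7, 25.3 and 20.4 CPM in WT1A, WT2A and WT2B. The other 3 astrocyte genes summed to 32.3, 34.2 and 27.6 CPM in C234W, against 30.8, 34.5 and 29.7 CPM in WT. Pericyte and smooth muscle markers overlapped, at 102 to 134 CPM in C234W and 53.1 to 116 CPM in WT over 7 genes. The sums for amacrine cells, fibroblasts, pigment epithelium, melanocytes, ciliary body and iris, and microglia and macrophages overlapped as well. The part of these cell types in the levels of the binding proteins was not tested. In bulk tissue, fewer cells of a type and less RNA per cell cannot be told apart.

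Igfbp2, the chief binding protein of cerebrospinal fluid, had 12, 23.6 and 11.6 CPM in FS3A, FS3B and FS5A, against 13.6, 24.5 and 27.3 CPM in WT1A, WT2A and WT2B. Each group held a library unlike the other two: FS3B stood with WT2A, and WT1A with FS3A and FS5A. Its log2 fold change was -0.47 (SE 0.345, edgeR adjusted p = 0.415), with values from -0.88 without FS3B to -0.28 without WT2B. It was -0.71 without WT1A, -0.31 without FS3A, -0.29 without FS5A and -0.25 with the length trend removed. Igfbp2 lies 5593 bases from Igfbp5 on chromosome 1, again end to end on opposite strands.

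Igfbp4 encodes the binding protein known as an inhibitor of IGF action, cut by the protease PAPP-A. It had 35.6, 39.4 and 21.6 CPM in FS3A, FS3B and FS5A, against 28.6, 43.6 and 66.8 CPM in WT1A, WT2A and WT2B. The groups overlapped, WT2B was far above the rest, and the log2 fold change of -0.52 (SE 0.325, edgeR adjusted p = 0.337) was -0.16 without that library. It was -0.30 without FS5A, -0.77 without WT1A (edgeR adjusted p = 0.0956) and -0.49 with the length trend removed. Igfbp6, a binding protein that prefers IGF2, was low throughout, at 1.37, 3.13 and 1.65 CPM in FS3A, FS3B and FS5A, against 2.86, 4.47 and 3.02 CPM in WT1A, WT2A and WT2B. FS3B reached the WT range, and the log2 fold change was -0.75 (SE 0.402, edgeR adjusted p = 0.272). It was -1.19 without FS3B (edgeR adjusted p = 0.138), -0.86 without WT1A and -0.51 with the length trend removed.

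The make-up of the family was compared as TPM, a share of all transcripts after counts are divided by transcript length, and as shares within each library, which scaling between libraries does not alter. Shares add up to a fixed sum, so a higher share of one gene lowers those of the rest. The 6 binding protein genes summed to 163 ± 45 TPM in C234W and 137 ± 43.3 TPM in WT (SD, n = 3 each), which overlapped. Igfbp7 made up 30.8, 21.6 and 25.7% of that sum in FS3A, FS3B and FS5A, against 16.7, 18.8 and 11.8% in WT1A, WT2A and WT2B. Igfbp4 made up 29.9, 28.6 and 26.8% in C234W, against 35.5, 34.2 and 46% in WT, also without overlap. Igfbp3 was 5.83 ± 2.29% in C234W and 1.40 ± 0.678% in WT, a description only.

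Leaving Igfbp3 out of the sum, the shares of Igfbp7 and Igfbp5 were higher in the 3 C234W libraries than in any WT library, and that of Igfbp4 was lower. Igfbp2 and Igfbp6 overlapped. With Igfbp3 in the sum the share of Igfbp5 overlapped too, at 13.2% in FS3A and 13.4% in WT1A. In CPM, 29.1% of all genes tested did not overlap, so such splits alone set no gene apart. TPM keeps the length trend, and shares with it removed were not computed. Igfbp5 has a transcript of 5848 bases, against 1205 for Igfbp7 and 2088 for Igfbp4. The ratio of Igfbp5 to its neighbour Igfbp2 was 0.828, 0.561 and 0.72 in FS3A, FS3B and FS5A, against 0.5, 0.304 and 0.287 in WT1A, WT2A and WT2B. Their log2 fold changes differed by 0.98, and by 0.51 with the length trend removed. That of Igfbp7 minus that of Igfbp4 was 1.20, and 1.40 with the length trend removed. In each of these pairs the genes had differed in opposite directions, so the values combine differences already given.

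**Figure D2:**
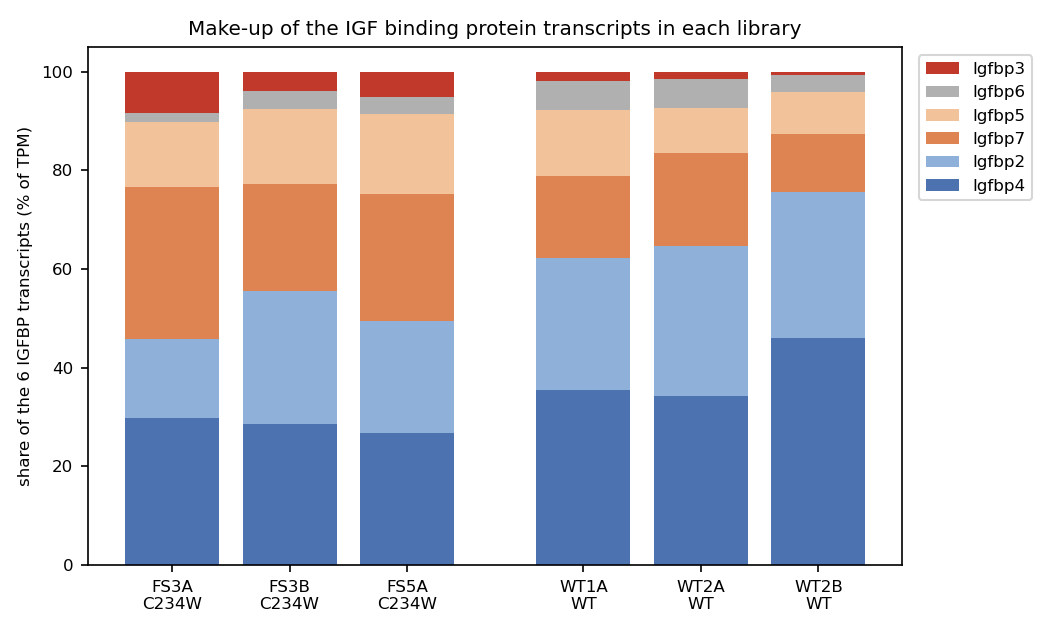
Share of each IGF binding protein gene in the summed TPM of the 6 genes (vertical axis, percent) for the C234W libraries on the left and the WT libraries on the right; each bar is 1 library. Igfbp7 takes 21.6 to 30.8% in C234W and 11.8 to 18.8% in WT, and Igfbp4 takes 26.8 to 29.9% in C234W and 34.2 to 46% in WT.

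Among the ligands, Igf2 had lower values in C234W and Igf1 did not separate the groups. Igf2, an imprinted growth factor gene on chromosome 7 (NM_010514, 142650768 to 142658804), had 64.4, 60.7 and 51 CPM in FS3A, FS3B and FS5A, against 82.2, 84.5 and 107 CPM in WT1A, WT2A and WT2B. The highest mutant library lay below the lowest WT library. The log2 fold change was -0.64 (SE 0.169, edgeR adjusted p = 0.0731), the smallest p of the 9, and it did not pass. Removing the length trend gave -0.81 (SE 0.171, edgeR adjusted p = 0.1), and it passed in DESeq2 (-0.63, adjusted p = 0.0188), which made 34 false calls among 188 on simulated data, and in edgeR without WT1A (-0.70, adjusted p = 0.0301). Over its 15 alternatives the adjusted p ran from 0.0188 to 0.384, the highest with libraries of a shared name number summed, and 2 passed. In TPM, which is not TMM-scaled, Igf2 was at 47.5, 46.6 and 37.7 in C234W and 46.3, 53.1 and 64.5 in WT, and there FS3A and FS3B lay above WT1A. The microRNA gene Mir483 lies inside Igf2 on the same strand.

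Igf1, the ligand made in the tissue by several cell types and in the circulation by liver, had 16.8, 27.8 and 19.5 CPM in FS3A, FS3B and FS5A, against 14.9, 22.7 and 25.3 CPM in WT1A, WT2A and WT2B. The ranges lay almost on top of each other. The log2 fold change of 0.03 (SE 0.264, edgeR adjusted p = 0.96) was -0.27 (SE 0.279) with the length trend removed and -0.16 and -0.21 without WT1A and without FS3B, so no direction can be given. Igf2 exceeded Igf1 per length in the 6 libraries, by 3.85 to 6.77 times in C234W and 6.56 to 9.75 times in WT.

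Both receptor genes had higher means in C234W, and both are long transcripts. Igf2r had 40.6, 36 and 46.7 CPM in FS3A, FS3B and FS5A, against 36.9, 26.5 and 18.3 CPM in WT1A, WT2A and WT2B. WT1A lay within the mutant range and the remaining WT libraries below it. Over the 6 libraries the log2 fold change was 0.59 (SE 0.251, edgeR adjusted p = 0.184). It was 0.87 (edgeR adjusted p = 0.0306) without WT1A, 0.38 (edgeR adjusted p = 0.457) without WT2B and 0.26 (SE 0.234, edgeR adjusted p = 0.56) once the length trend was removed. Airn, the imprinted RNA transcribed across Igf2r on the opposite strand, averaged 1.41 CPM in C234W and 0.714 CPM in WT and did not pass (edgeR adjusted p = 0.271).

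Igf1r was the gene of the 10 with the most counts, at 205, 169 and 192 CPM in FS3A, FS3B and FS5A, against 178, 139 and 126 CPM in WT1A, WT2A and WT2B. WT1A again lay above the lowest mutant library. The log2 fold change of 0.35 (SE 0.174, edgeR adjusted p = 0.236) became 0.52 (edgeR adjusted p = 0.0493) without WT1A and -0.05 (SE 0.158, edgeR adjusted p = 0.874) once the length trend was removed. The ratio of Igf2 to Igf2r per length was 3.49, 3.71 and 2.4 in C234W, against 4.9, 7.01 and 12.9 in WT, without overlap. Their log2 fold changes differed by -1.23, and by -1.07 with the length trend removed. Igf2 had a lower mean in C234W and Igf2r a higher one, so this ratio combines differences already given. The ratio of Igf1r to Igf2r overlapped, at 3.755, 3.48 and 3.05 in C234W and 3.59, 3.89 and 5.10 in WT.

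**Figure D3:**
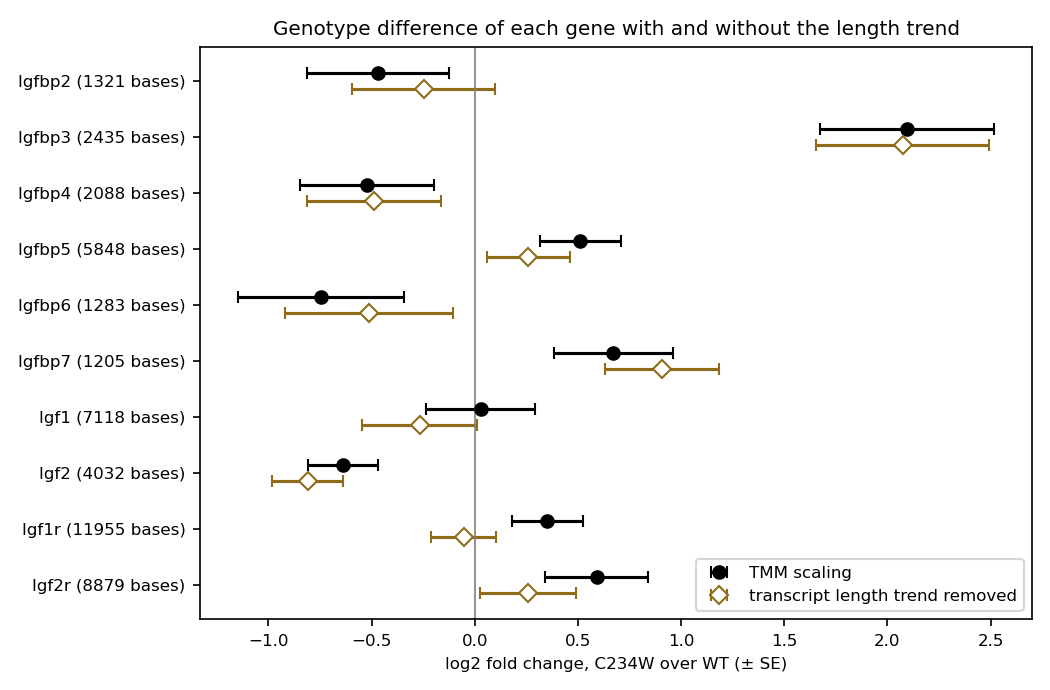
Log2 fold change of each gene, C234W over WT (horizontal axis, ± SE), with TMM scaling (filled circles) and with each library's transcript length trend removed (open diamonds); transcript lengths stand beside the names. Removing the trend moves Igf1r from 0.35 to -0.05 and Igfbp7 from 0.67 to 0.91, and leaves Igfbp3 at 2.07.

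In the order of TPM over the 6 libraries, Igfbp4 (50.2 TPM) and Igf2 (49.3) came first, then Igf1r (38.6), Igfbp2 (38.1), Igfbp7 (31.6), Igfbp5 (18.8), Igf2r (10.7), Igf1 (8.12), Igfbp6 (5.69) and Igfbp3 (5.58). Of the 9 neighbouring pairs in this order, the upper gene was above the lower one in 6 of 6 libraries for Igfbp7 over Igfbp5 and for Igfbp5 over Igf2r. The other pairs kept their order in 3 or 4 of 6 libraries. For some of them the order split by genotype. Igfbp6 was above Igfbp3 in 0 of 3 C234W and 3 of 3 WT libraries, a description only, as Igfbp3 was chosen by its rise. Igf2 was above Igf1r, and Igfbp2 above Igfbp7, in 1 of 3 C234W and 3 of 3 WT libraries. Igf2r was above Igf1, and Igf1 above Igfbp6, in 3 of 3 C234W and 1 of 3 WT libraries. Igfbp4 and Igf2 as well as Igf1r and Igfbp2 changed places within each genotype. By group means, Igf1r came first in C234W at 47.5 ± 3.73 TPM, and Igf2 in WT at 54.6 ± 9.20 TPM (SD, n = 3 each). TPM is not TMM-scaled and keeps the length trend, and Igf1r has a transcript of 11955 bases. The log2 fold change of Igf1r was 0.35 with TMM and -0.05 with the length trend removed. Whether these orders split by genotype once the length trend is removed was not tested. Igfbp3 was at 9.41 ± 4.30 TPM in C234W, beside Igf1 at 9.10 ± 2.66, and at 1.75 ± 0.654 TPM in WT (SD, n = 3 each), below Igfbp6 at 6.53 ± 2.01.

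**Figure D4:**
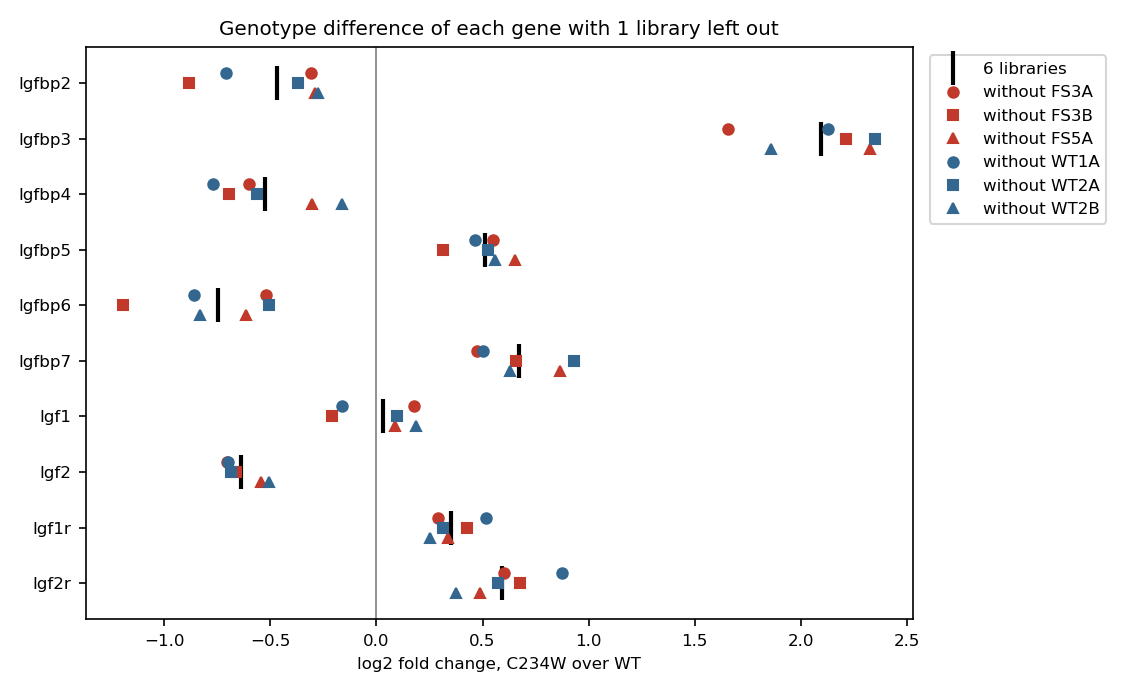
Log2 fold change of each gene, C234W over WT (horizontal axis), in the 6 libraries (upright bars) and with 1 library left out (symbols, colored by genotype). Igfbp3 stays between 1.66 and 2.35, and the values of Igf1 lie on both sides of 0.

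The genes with the pattern most like that of Igfbp3, by Pearson's r of log2(CPM + 0.1) over the 6 libraries among 13294 genes that averaged 1 CPM or more and had no predicted-gene symbol (Gm with digits, or ending in Rik), were Bend4 (r = 0.991), Stard9 (0.991), Ltbp1 (0.991), Fbxo4 (0.99) and Cttnbp2 (0.99). The 6 libraries fall into 2 genotypes that these genes also separate, and r describes these libraries only. Ltbp1 encodes a binding protein of latent TGF-beta in the matrix, and had 7.17, 6.09 and 5.18 CPM in FS3A, FS3B and FS5A, against 4.32, 4.52 and 3.60 CPM in WT1A, WT2A and WT2B. Within the family, r with Igfbp3 was 0.842 for Igfbp7, 0.797 for Igf1r, 0.747 for Igf2r and 0.702 for Igfbp5. It was -0.15 for Igf1, -0.456 for Igfbp4, -0.527 for Igfbp2, -0.66 for Igfbp6 and -0.814 for Igf2.

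Beyond the 10 genes, 86 genes of the pathway were listed, of which 78 passed the filter. In C234W 1 fell, 0 rose and 77 did not pass (edgeR quasi-likelihood test, adjusted p under 0.05), where 0.184% of all genes rose and 1.28% fell. The median log2 fold change of the 78 was 0.08, beside 0.02 over all genes tested, and 20 were at an unadjusted p under 0.05, or 25.6%, beside 25.4% of all genes. The gene that fell was Gsk3a, 1 of 19 in the list of PI3K, AKT and FOXO genes, a kinase that AKT switches off, at 173 ± 6.54 CPM in C234W and 299.8 ± 18.4 CPM in WT (SD, n = 3 each), -0.79 on the log2 scale (SE 0.14, edgeR adjusted p = 0.0484). Once the length trend was removed it was -0.78 (edgeR adjusted p = 0.0968). Over its 15 alternatives the log2 fold change lay between -0.83 and -0.61 and the adjusted p between 6.07e-05 (DESeq2) and 0.379 (libraries summed). In edgeR, leaving out WT2A, WT2B, FS3A, FS3B or FS5A ended the call (adjusted p = 0.218, 0.237, 0.174, 0.0868 and 0.0911), and leaving out WT1A did not (0.0129). Over all genes tested, 0 passed without WT2A, WT2B, FS3A or FS3B and 4 passed without FS5A. The lost call was therefore not particular to Gsk3a.

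The remaining lists held no gene past the threshold, and each is given with its gene of smallest p. Among 17 receptors and adaptors this was Insr, the insulin receptor gene, at 115 ± 6.29 CPM in C234W and 68.8 ± 16.9 CPM in WT (SD, n = 3 each), with a log2 fold change of 0.74 (SE 0.192, edgeR adjusted p = 0.0692) and of 0.40 with the length trend removed. This list had a median of 0.30, or of -0.07 once the length trend was removed. In the list of 11 IGFBP proteases and their inhibitors it was Mmp14, a membrane-bound matrix protease (0.83, SE 0.291, adjusted p = 0.13), and the list's median was 0.49, or 0.24 once the length trend was removed. Among 12 genes of the mTORC1 arm it was Tsc1, a brake on that kinase complex (0.68, SE 0.206, adjusted p = 0.0945, and 0.38 with the length trend removed), and among 14 of the RAS and MAPK arm it was Hras (-0.75, SE 0.172, adjusted p = 0.0576). Without WT1A these 4 passed in edgeR, Insr at 0.94 (adjusted p = 0.0134), Mmp14 at 1.07 (0.0441), Tsc1 at 0.86 (0.027) and Hras at -0.87 (0.0134). In that setting, with WT2A and WT2B as the only WT libraries, 18.5% of all genes and 22 of the pathway genes passed. The limit given above for that pair, which may come from the same animal, holds here too. In edgeR these 4 did not pass with another library left out or with libraries of a shared name number summed. Over all genes tested, 0 passed with WT2A, WT2B, FS3A or FS3B left out or with libraries summed, and 4 passed without FS5A. Those settings therefore do not set the 4 genes apart. By DESeq2, which called 11.9% of all genes, Insr, Tsc1 and Hras passed and Mmp14 did not. Igfals, which encodes the partner of IGFBP3 in the blood complex, had the smallest p of the 2 tested genes in the list of other ligands and binding proteins (-1.13, SE 0.557, adjusted p = 0.235). Igf2bp2, an RNA-binding protein of Igf2 mRNA, had the smallest p of 3 in the last list (-1.04, SE 0.469, adjusted p = 0.202), whose median of 0.77 has the other sign.

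**Figure D5:**
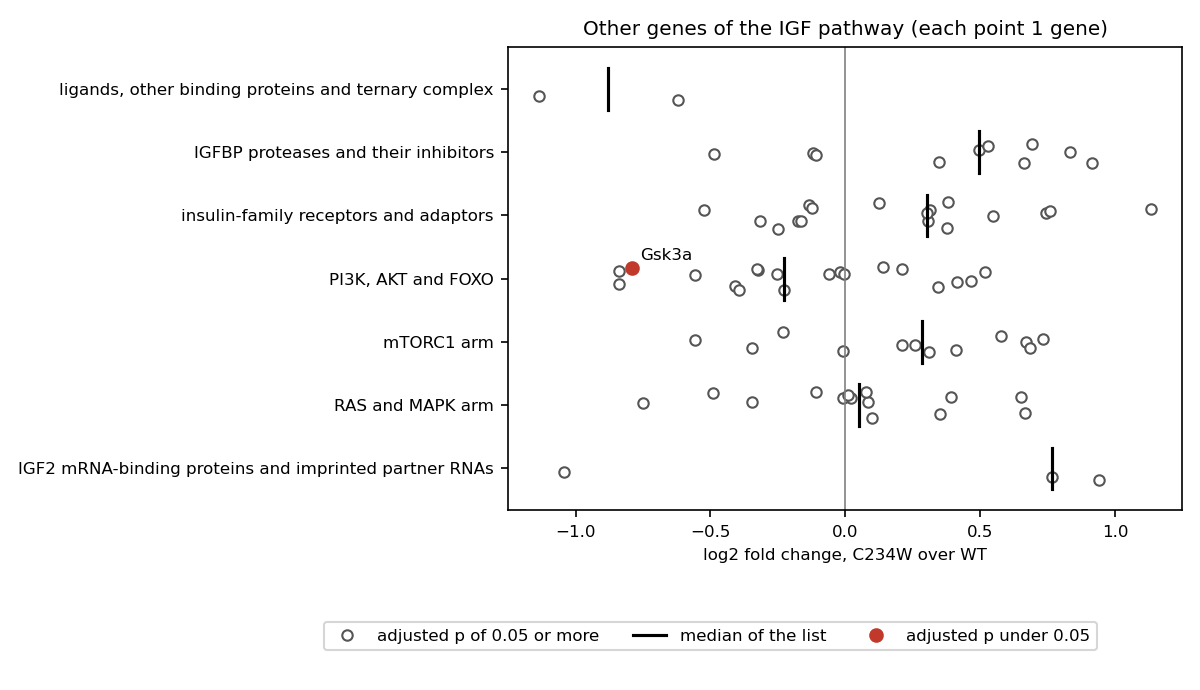
Log2 fold change (horizontal axis, C234W over WT) of the 78 tested genes of the IGF pathway outside the 10 genes, by list; each point is 1 gene and the upright bar is the list's median. Gsk3a, the filled point at -0.79, is past the threshold and the open points lie on both sides of 0.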

How the data were processed

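Poly-A RNA of mouse retina was sequenced in 6 libraries, 3 per genotype, from strand-specific TruSeq libraries per the labels' protocols. The submitters' processing notes name STAR 2.7.8a and the build mm10 for the mapping of reads. Per the file headers and the design text, HOMER then counted exonic tags on the minus strand, keeping a single isoform at each locus. The deposited values are estimated counts, not normalized, in steps of 0.5, and were rounded to whole numbers for the tests. The authors' table gives transcript lengths as another column, used here for TPM.

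Columns named WT were assigned to wild type. The meaning of FS is not given in the labels; as the header lists 3 directories of each genotype, the 3 FS columns were assigned to C234W by elimination. Every direction given depends on that assignment. Sample columns left out numbered 0. No pair of libraries agreed within sampling noise (smallest chi-square per degree of freedom 9.97, WT2A and WT2B).

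Of 25124 gene models, 14685 passed filterByExpr in edgeR (4.0.16, R 4.3.3). Libraries were scaled by TMM and compared by edgeR's quasi-likelihood test (robust fit, no covariate) with Benjamini-Hochberg adjustment and a threshold of 0.05. Adjusted p-values crowd at this threshold, so the number of calls is sensitive to small choices. The length trend was removed by a loess offset on log2 length (span 0.3). DESeq2 (1.42.0) and limma-voom (limma 3.58.1) were alternatives. On simulated data for this comparison (14685 genes, 100 changed 2-fold and 100 changed 4-fold), edgeR recovered 40% and 87%, with 9 false calls among 136. Of the 188 calls that DESeq2 made there, 34 were false.

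Genes named are the 10, Elovl2, the neighbour Igfbp1, in each pathway list the genes past the threshold or the one of smallest p, the 5 genes most like Igfbp3, and markers. The genes and lists were chosen with earlier results of these data known. RefSeq promoters came from the GRCm38.p6 table, which matched the counted start for 9 of the 10 genes.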

Additional observations from a re-analysis of the deposited data

How the results depend on the processing

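No paired analysis was possible because the table's columns carry no replicate number of the labels. The number of genes called over all genes, 215 by the main settings, was 0 with RLE, upper-quartile or total-count scaling, with the length trend removed, or after summing libraries that share a name number (at an unadjusted p under 0.05 these gave 3753, 3805, 4349, 3014 and 1793, in that order). It was 353 without a filter and 1754 by DESeq2. With 1 library left out it ran from 0 to 2775: 2775 without WT1A, 4 without FS5A and 0 without each of the others. The fit without WT1A had only WT2A and WT2B as WT, whose names share a number. Among the 9 genes other than Igfbp3, DESeq2 called 1, and leaving out a library gave 0 to 3, the 3 without WT1A. For the pathway list, 1 by the main settings, the count was 0 with those 3 scalings, with the length trend removed or with libraries summed, 5 by DESeq2, and 0 to 22 with 1 library left out, the 22 without WT1A. Signs turned for Igf1 (between -0.21 and 0.19 with 1 library left out, negative without WT1A at -0.16 and without FS3B, and -0.27 with the length trend removed) and for Igf1r (-0.054 with the length trend removed); the cause was not tested. The remaining genes of the 10, Igfbp3 included, kept their sign under the alternatives run. Scaling to total counts gave a median over all genes of 0.20 (log2), against 0.02 with TMM, and turned no sign among the 10. Igfbp3 and Igfbp6 rest on as few as 15 and 25 counts in a library, which limits their precision.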
